A study of Mus musculus with 14 samples.

Results

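Autophagy machinery denotes here the genes whose proteins build the autophagosome, load it with cargo and fuse it with the lysosome. The set was a list of 39 genes given by name, with no threshold on measured values but drawn up when earlier results of these data were known, and 37 of them could be measured among 18193 genes in all. Each gene was represented by the probe set of highest mean over the 14 arrays among those annotated to that gene alone. The other probe sets, which 26 of the 37 members had, served as a check. Optn was not analysed here, and the probe sets of Bnip3l were not used because their annotation also names a pseudogene of it.

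Macroautophagy encloses cytoplasm in a double membrane. The ULK1 kinase complex starts the process, the class III phosphatidylinositol 3-kinase complex marks the growing membrane with a phosphoinositide, and WIPI and ATG2 proteins read that mark and supply lipid. A ubiquitin-like conjugation system then attaches ATG8-family proteins such as LC3 to the membrane, cargo receptors bind them, and SNARE proteins fuse the closed vesicle with the lysosome. TP53INP2 is a protein known to bind ATG8-family proteins and to promote autophagosome formation, and autophagy is known to take part in fat cell differentiation.

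The cells were of the 3T3-L1 line, mouse fibroblasts that turn into fat cells when induced with hormones, and their total RNA was amplified and hybridised to 14 arrays. KD cells carried a lentivirus with an siRNA sequence against TP53INP2, and Control cells carried one with a scrambled sequence. There were 4 KD and 4 Control arrays at day 7 of differentiation (labelled adipocyte), and 3 KD and 3 Control arrays at day 0 (labelled preadipocyte), when cells had been confluent for days. Whether replicates were separate cultures is not stated, so p-values cover only how far these samples differ among themselves, and that spread may be technical. An effect of the knockdown and a lasting difference between the KD and Control cells in virus or derivation cannot be told apart.

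The targeted gene, Trp53inp2, measured 10.20, 10.06, 10.01 and 10.45 in KD cells at day 7, against 11.74, 11.77, 11.78 and 11.70 in Control cells, on the log2 scale used throughout. Its log2 difference was -1.57 ± 0.13 at day 7 (SE, adjusted p = 0.000111) and -1.17 ± 0.15 at day 0 (SE, adjusted p = 0.00205), which is 33.7% and 44.4% of the Control level. The mean level of 7 measured adipocyte markers was 10.57 to 11.20 in KD and 9.88 to 10.73 in Control arrays at day 7, against 7.70 to 8.68 in KD and 7.28 to 8.25 in Control arrays at day 0. Of these 7 markers, 5 rose from day 0 to day 7 in KD cells and 5 in Control cells. The 7 preadipocyte or fibroblast markers averaged 10.32 to 11.09 in KD arrays and 10.91 to 11.20 in Control arrays at day 7, and 2 of them, Pdgfra (-0.49) and Col3a1 (-0.35), were lower in KD cells. Means of macrophage, endothelial, epithelial and skeletal muscle markers lay between 2.97 and 5.01 in every array. Among the macrophage markers, Csf1r lay well above that range, at 7.87 to 9.88 in KD and 7.61 to 9.12 in Control cells at day 7, with the highest value in KD replicate 3, and Cd68 lay at 5.99 to 7.12 in KD and 6.25 to 6.87 in Control cells. Neither passed with knockdown, and the defining leukocyte markers Ptprc, Adgre1 and Itgam lay below 4 in every array. Of the muscle markers, Des was higher in KD cells at day 7 (0.61), and the part of such cells or genes in the results was not tested. The excess of signal at the 3′ over the 5′ end of beta-actin, a sign of RNA integrity and amplification, was 2.70 to 3.37 in KD and 2.82 to 3.48 in Control arrays at day 7. At day 0 it was 2.74 to 3.23 in KD and 3.32 to 3.76 in Control arrays, without overlap. The same measure on Gapdh was 1.59 to 1.90 in KD and 2.02 to 2.43 in Control arrays at day 0, again without overlap. At day 7 it was 1.35 to 1.70 in KD and 1.24 to 1.79 in Control arrays. The days thus overlapped in KD cells and not in Control cells, and the part of the Gapdh measure in the results was not tested. Replicates 1 and 2 of a group lay close together. Over the genes brighter than the median gene, the SD of their difference at day 7 was 0.132 in KD and 0.0968 in Control cells. The other pairs of those groups had 0.24 to 0.476 and 0.325 to 0.453. Arrays with the same replicate number deviated together within a day, though at day 7 some differently numbered arrays did so as much or more. Values with the replicate number as a block are therefore given beside the results that it changes. The block counts replicates 1 and 2 as separate pairs, although they lay close together.

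In day 7 cells the knockdown was accompanied by higher Wipi2 and Uvrag and lower Atg10, Atg2b and Atg4b. These 5 of 37 members passed the test (13.5%; limma, Benjamini-Hochberg adjusted p under 0.05 over all genes), 2 of them higher and 3 lower. Of all genes tested, 6.58% were called, 3.01% higher and 3.57% lower. The median log2 difference was 0.03 over the members and -0.02 over all genes. The arrays of KD and Control cells did not overlap in 9 members, 6 higher and 3 lower, which is 24.3% of them against 13% of all genes (6.02% higher and 6.96% lower). Since replicates 1 and 2 lie close together, they were also averaged and counted as 1 sample, and 0 members were then called. The adjusted p of the 5 members was 0.144 to 0.221 in that fit, which has fewer samples.

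**Figure D1:**
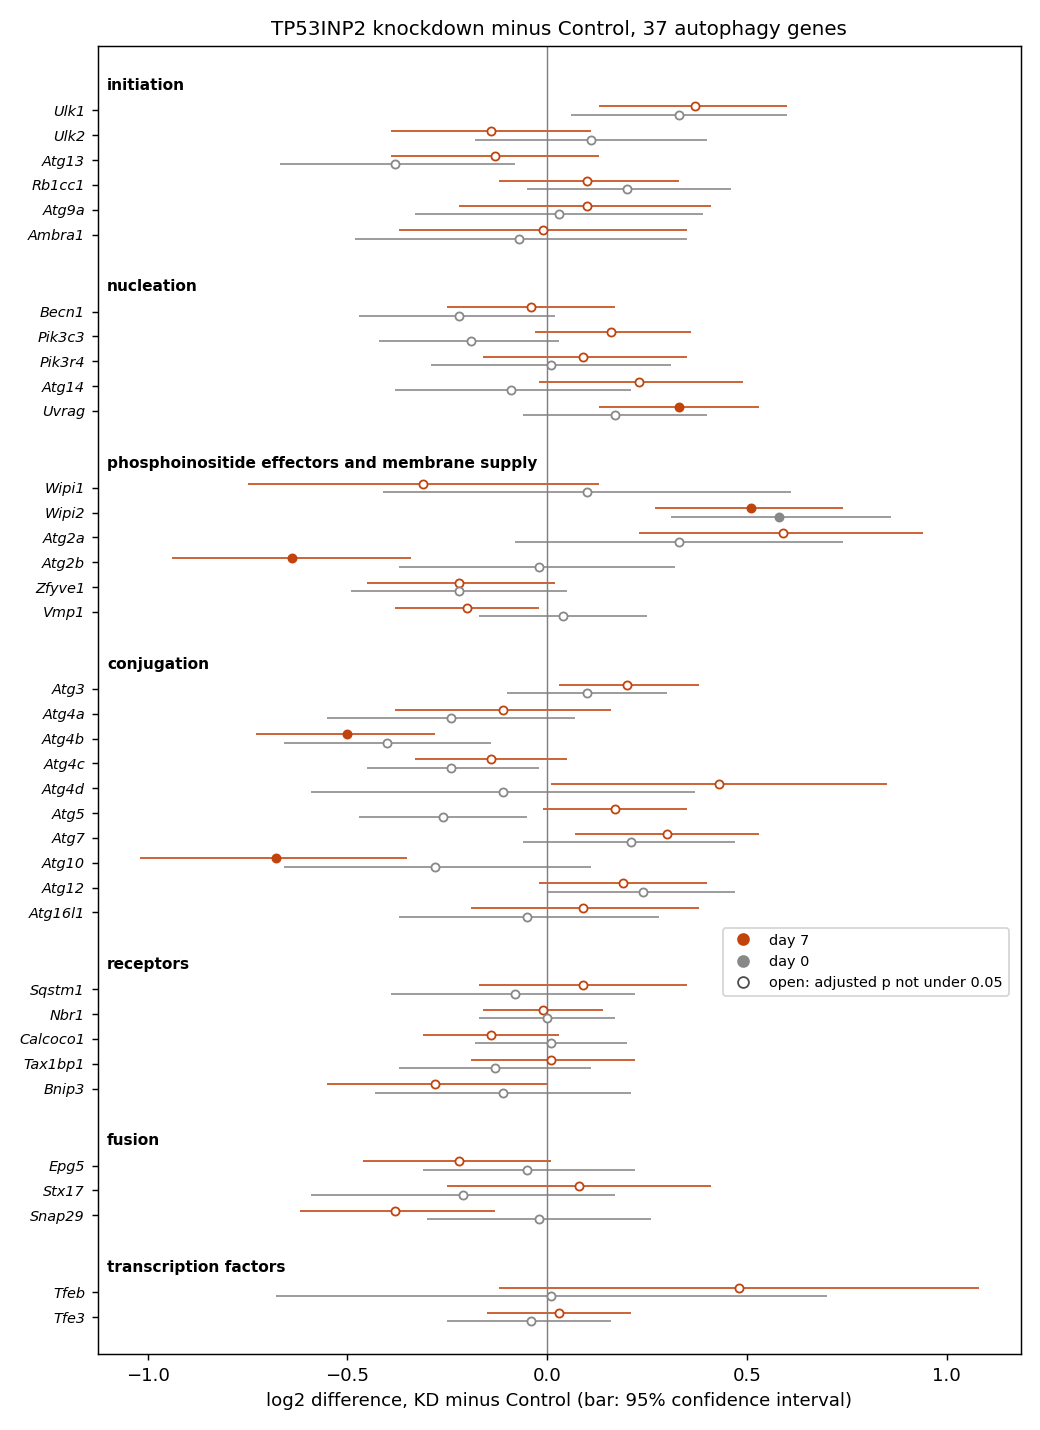
The log2 difference of KD minus Control (horizontal axis) is shown for 37 members, ordered by step, at day 7 (orange) and day 0 (grey), with 95% confidence intervals. Filled points mark the 5 members called at day 7 and the 1 called at day 0. Some uncalled members, such as Atg2a at day 7 (0.23 to 0.94), also have intervals that leave out 0, since the call rests on the adjusted p.

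Wipi2 encodes a phosphoinositide-binding protein that recruits the conjugation machinery to the growing membrane. It measured 8.40, 8.33, 8.62 and 8.61 in KD cells at day 7, against 7.83, 7.79, 8.26 and 8.05 in Control cells. Every KD array lay above every Control array. The log2 difference was 0.51 ± 0.11 (SE), or 1.42-fold, with an adjusted p of 0.0197 in limma and 0.00615 with the replicate block. The call was lost without Control_day7 replicate 1 (0.46, adjusted p = 0.0511) and without KD_day7 replicate 4 (0.47, adjusted p = 0.0609).

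Uvrag encodes a partner of Beclin 1 in the phosphatidylinositol 3-kinase complex that also acts on endosomes. It measured 9.29, 9.32, 9.24 and 9.20 in KD cells at day 7, against 9.07, 9.05, 8.93 and 8.69 in Control cells. The groups did not overlap, and Control replicate 4 was the lowest array. Uvrag differed by 0.33 ± 0.09 on the log2 scale (SE), or 1.26-fold, close to the threshold in limma (adjusted p = 0.049, and 0.0398 with the replicate block). Leaving out any 1 array other than KD_day7 replicate 3 ended the call (adjusted p from 0.0502 to 0.139). The log2 difference was then between 0.25 (without Control_day7 replicate 4) and 0.37 (without Control_day7 replicate 1 or 2).

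Atg10 encodes the E2-like enzyme that joins ATG12 to ATG5. It measured 8.27, 8.49, 8.90 and 8.80 in KD cells at day 7, against 9.21, 9.22, 9.41 and 9.34 in Control cells. All KD arrays lay below all Control arrays. The log2 difference was -0.68 ± 0.15 (SE), which is 62.2% of the Control level (limma adjusted p = 0.0246, and 0.00541 with the replicate block). The call was lost without KD_day7 replicate 1 (-0.57, adjusted p = 0.0764) or 2 (-0.64, 0.083), and without Control_day7 replicate 3 (-0.65, 0.0617) or 4 (-0.67, 0.0612).

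Atg2b encodes one of a pair of lipid transfer proteins that feed the growing membrane. It measured 7.40, 7.43, 7.84 and 7.35 in KD cells at day 7, against 8.21, 8.15, 8.29 and 7.92 in Control cells. The groups did not overlap, and KD replicate 3 stood above the other KD arrays. The log2 difference was -0.64 ± 0.14 (SE), which is 64.2% of the Control level (limma adjusted p = 0.0212, and 0.00513 with the replicate block). The call was lost without KD_day7 replicate 1 (-0.60, adjusted p = 0.0713), 2 (-0.61, 0.0721) or 4 (-0.59, 0.0644), and without Control_day7 replicate 1 (-0.62, 0.0501) or 3 (-0.59, 0.057).

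Atg4b encodes the cysteine protease known to process most ATG8-family proteins before their conjugation. It measured 10.35, 10.34, 9.84 and 10.13 in KD cells at day 7, against 10.64, 10.78, 10.60 and 10.65 in Control cells. Again no KD array reached the Control range. Atg4b differed by -0.50 ± 0.10 on the log2 scale (SE), which is 70.6% of the Control level (limma adjusted p = 0.0173, and 0.0118 with the replicate block). Without KD_day7 replicate 4 the difference was -0.49 (adjusted p = 0.0514).

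**Figure D2:**
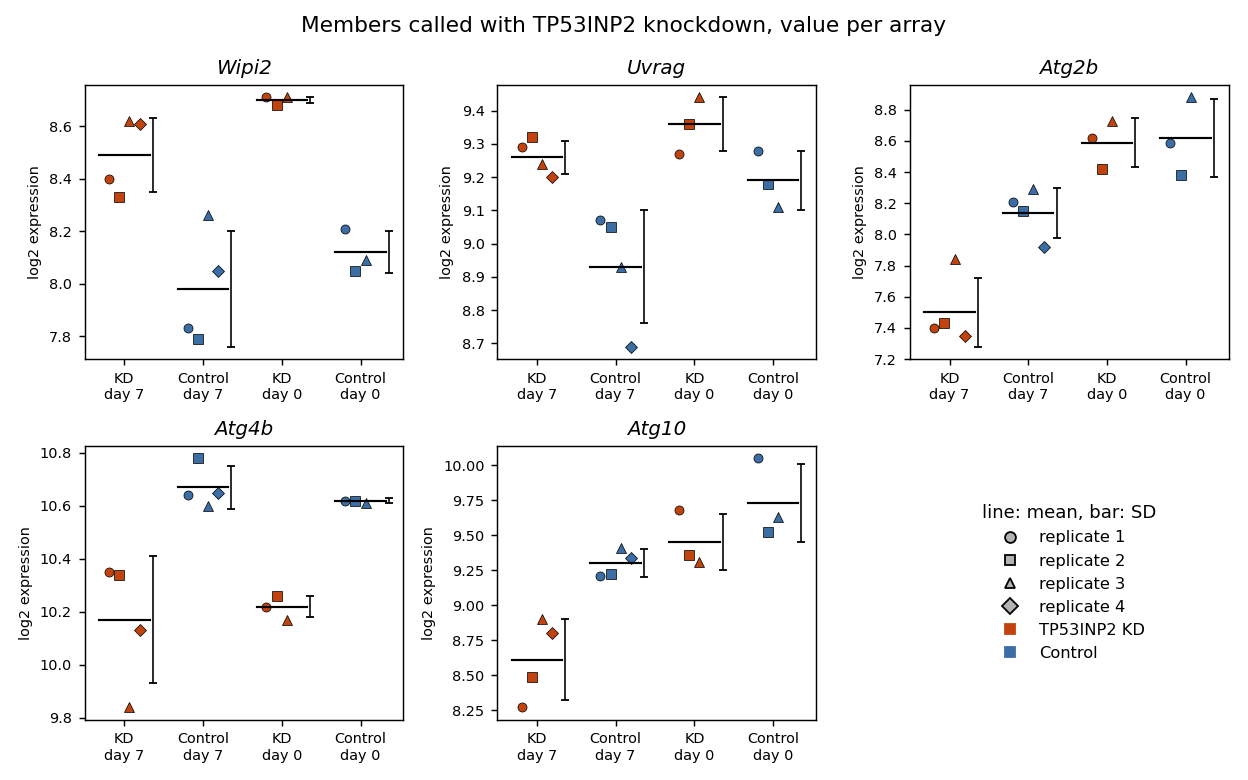
The log2 expression (vertical axis, not starting at 0) of the 5 members called with knockdown is shown for every array, KD left of Control at each day, with the group mean as a line and the SD as a bar. At day 7 the KD and Control arrays do not overlap in any of the 5 panels; at day 0 they are apart in Wipi2 and Atg4b.

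With the replicate number as a block, 9 members passed at day 7. Calls rose over all 18193 genes too, from 1197 without the block to 2680 with it. The 4 added ones were Ulk1, the kinase that starts autophagy (0.37 ± 0.09, adjusted p = 0.032), and Atg2a, the other ATG2 lipid transfer gene (0.59 ± 0.12, 0.0194). The others were the protease gene Atg4d (0.43 ± 0.11, 0.0417) and the SNARE gene Snap29 (-0.38 ± 0.09, 0.0359). The other probe sets of Snap29 did not share its sign at day 7 throughout: the second, with a mean of 7.37 against 7.70, differed by 0.44 ± 0.20 (adjusted p = 0.239 over all probe sets, without the block) and the last by -0.11 ± 0.13 (0.699). Over genes and without the block, the adjusted p in limma was 0.0607 for Ulk1, 0.0528 for Atg2a, 0.199 for Atg4d and 0.0642 for Snap29. Ulk1 measured 10.15, 10.13, 9.98 and 10.39 in KD cells at day 7, against 9.95, 9.88, 9.58 and 9.76 in Control cells, without overlap. Atg2a measured 8.47, 8.31, 7.98 and 8.78 in KD cells, against 7.84, 7.82, 7.64 and 7.89 in Control cells, also without overlap. Within the ATG2 pair, the single probe set of Atg2a and the brightest of Atg2b thus had differences of opposite sign. That of Atg2b passed without the block as well, but its second probe set did not share the decrease (0.01 ± 0.13, limma adjusted p = 0.973 over all probe sets).

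The number of members called at day 7 depended on single arrays. It was 10 without KD_day7 replicate 3, 1 (Atg10) without KD_day7 replicate 4, and 2 without KD_day7 replicate 1, KD_day7 replicate 2, Control_day7 replicate 1 or Control_day7 replicate 3. Calls over all 18193 genes moved too, from 1197 to 2885 without KD_day7 replicate 3 and to 461 without KD_day7 replicate 4. In the last 4 settings they were 369, 377, 713 and 591. KD replicate 3 had a mean adipocyte marker level of 10.57 and a preadipocyte marker level of 11.09, against 11.06 to 11.20 and 10.32 to 10.42 in the other KD arrays of day 7. The part of the differentiation state in these differences was not tested, and in such bulk samples fewer cells of a type and less RNA per cell cannot be told apart.

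By step, 0 of 6 initiation genes passed at day 7, with log2 differences from -0.14 (Ulk2) to 0.37 (Ulk1). Of 5 nucleation genes, Uvrag passed, and the others ran between -0.04 (Becn1, Beclin 1) and 0.23 (Atg14, the Beclin 1 partner specific to autophagosomes). Of the 6 phosphoinositide effectors and membrane suppliers, Wipi2 and Atg2b passed, and the median was -0.21. Of 10 conjugation genes, Atg4b and Atg10 passed, and the median was 0.13. Among the 5 measured receptors 0 passed, from -0.28 (Bnip3, a mitophagy receptor) to 0.09 (Sqstm1, which encodes p62), and Nbr1 and Tax1bp1 lay at -0.01 and 0.01. Among the 3 fusion genes 0 passed, from -0.38 (Snap29) to 0.08 (Stx17). The transcription factor genes Tfeb (0.48 ± 0.28, adjusted p = 0.332) and Tfe3 (0.03 ± 0.08, 0.871) did not pass. The 95% confidence interval was -0.12 to 1.08 for Tfeb and -0.15 to 0.21 for Tfe3, so the data bound a change of Tfe3 more closely.

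In day 0 cells, 1 of the 37 members passed, Wipi2 (2.7%, against 1.8% of all genes). It was higher in KD cells, as were 0.467% of all genes, and 0 members were lower, against 1.34% of all genes. It measured 8.71, 8.68 and 8.71 in KD cells, against 8.21, 8.05 and 8.09 in Control cells. The groups did not overlap. The difference of 0.58 ± 0.13 (SE) had an adjusted p of 0.0355 in limma and 0.0125 with the replicate block. The call was lost without any 1 of the 6 day 0 arrays (0.55 to 0.63, adjusted p from 0.0518 to 0.116) and without KD_day7 replicate 1 (0.58, adjusted p = 0.0518), which entered the common estimate of spread. It was also lost when each array was shifted to the same median (0.52, adjusted p = 0.0584), a scaling under which the median of all genes was -0.12 instead of -0.05. With the beta-actin measure, which did not overlap between the groups at day 0, as a covariate the difference was 0.45 (adjusted p = 0.131), and Ulk1 was then the 1 member called.

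Differences of KD from Control at day 0 ran from -0.40 to 0.58 over the members, with a median of -0.04 against -0.05 over all genes. Arrays of the groups did not overlap in 11 members (29.7%), against 22.6% of all genes (6.89% higher and 15.7% lower). The 6 higher ones were Ulk1, Ulk2, Rb1cc1 (a scaffold of the ULK1 complex, also called FIP200), Wipi2, Atg7 (the E1-like enzyme) and Atg12, and the 5 lower ones Atg13 (a regulatory subunit of the ULK1 complex), Pik3c3 (the lipid kinase VPS34), Atg4b, Atg4c and Atg5. Atg4b measured 10.22, 10.26 and 10.17 in KD cells, against 10.62, 10.62 and 10.61 in Control cells. These arrays did not overlap at either day, but the day 0 difference of -0.40 ± 0.12 did not pass (limma adjusted p = 0.127). Atg2b measured 8.62, 8.42 and 8.73 in KD cells at day 0, against 8.59, 8.38 and 8.88 in Control cells, and the groups overlapped (-0.02 ± 0.16, adjusted p = 0.969).

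Whether the knockdown difference itself differed between days was tested directly, as the day 7 difference minus the day 0 difference. In limma 0 of 37 members passed, against 0.022% of all genes (0.0165% with a higher and 0.0055% with a lower difference at day 7). An unadjusted p under 0.05 was found for 3 members and for 2403 of all 18193 genes, so the share of members was not above that of all genes. The 3 members were Atg5, which encodes the acceptor of ATG12 (0.43 ± 0.13, adjusted p = 0.187), Atg2b (-0.62 ± 0.21, 0.247) and Pik3c3 (0.36 ± 0.14, 0.294). The knockdown difference of Atg5 was 0.17 at day 7 and -0.26 at day 0. In the other Atg5 probe sets it was 0.54 and 0.40 at day 7 and -0.00 and -0.02 at day 0. For the second Atg2b probe set the day 7 difference minus the day 0 difference was 0.09 ± 0.19. With the replicate block 0 members passed as well. For Wipi2, whose difference was called at both days, the differences departed by -0.08 with a 95% confidence interval of -0.44 to 0.28. Intervals of this width leave room for moderate departures in most members.

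Probe sets of one gene did not always move together. A second Wipi2 probe set, with a mean of 8.02 against 8.31 for the brightest, measured 9.02, 8.98, 8.57 and 9.04 in KD cells at day 7, against 7.92, 7.98, 7.82 and 8.05 in Control cells. At day 0 it measured 7.19, 7.56 and 7.49 in KD cells, against 7.48, 7.67 and 7.55 in Control cells. The groups were thus far apart at day 7 and overlapped at day 0. With adjustment over 45037 probe sets, its log2 difference was 0.96 ± 0.12 at day 7 (limma adjusted p = 0.00212) and -0.15 ± 0.14 at day 0 (0.656). At day 0, 1 of the 87 probe sets of the members was called, the brightest of Wipi2, against 2.8% of all probe sets. The 2 differences departed by 1.11 ± 0.19 (adjusted p = 0.0487, where 0.184% of all probe sets were called). The brightest Wipi2 probe set, by contrast, was higher in KD cells at both days, so these 2 probe sets shared the increase at day 7 but not at day 0. From day 0 to day 7 the second probe set rose by 1.49 ± 0.13 in KD cells (5.57e-06, where 31.3% of all probe sets were called) and changed by 0.37 ± 0.13 in Control cells (0.0707, where 17.5% were called), against -0.21 and -0.13 for the brightest. Another, dim Wipi2 probe set, with a mean of 4.62, differed by -0.01 at day 7 and 0.05 at day 0. Which transcripts each probe set reads is not stated in the sources used here.

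The second Atg2b probe set, with a mean of 7.59 against 8.16 for the brightest, differed by 0.01 ± 0.13 at day 7 (adjusted p = 0.973 over all probe sets) and so did not share the decrease. With the mean over its probe sets, Atg2b differed by -0.25 (adjusted p = 0.118). The other probe sets of Atg4b differed by -0.43 ± 0.11 (0.0535) and -0.53 ± 0.19 (0.142) at day 7, in the direction of the brightest. From day 0 to day 7 in KD cells, however, these 2 Atg4b probe sets fell by 0.90 and by 1.18 on the log2 scale, against a change of -0.05 in the brightest. They fell in Control cells too, with changes of -0.62 and -0.90 (limma adjusted p = 0.00361 and 0.00853 over all probe sets), against 0.05 in the brightest. Uvrag and Atg10 had a single probe set each. Over all 87 probe sets of the members, 5 passed at day 7 (3.47% of all probe sets were called): 2 of Wipi2 and 1 each of Atg2b, Atg4b and Atg10. Uvrag did not pass this wider adjustment (0.0784).

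**Figure D3:**
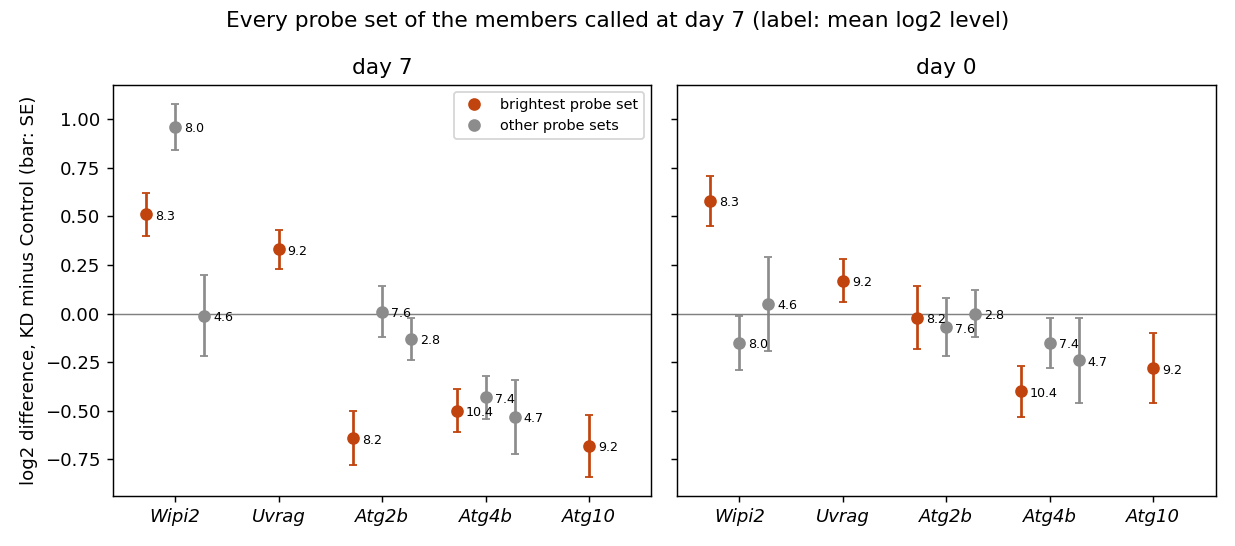
The log2 difference of KD minus Control (vertical axis, bars are SE) is shown for every probe set of the 5 members called at day 7, in day 7 cells (left) and day 0 cells (right), with its mean log2 level as a label. The second Wipi2 probe set lies at 0.96 at day 7 and at -0.15 at day 0, and the second Atg2b probe set lies near 0 at both days.

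More of these genes passed the test with differentiation than with knockdown. From day 0 to day 7, 18 of 37 members changed in KD cells (48.6%, against 35.8% of all genes). Of these, 6 rose (19% of all genes rose) and 12 fell (16.8% of all genes fell). In Control cells 9 of 37 changed (24.3%, against 22.9% of all genes), 1 rising (10.1% of all genes) and 8 falling (12.8% of all genes). The median log2 change was -0.15 over the members and 0.01 over all genes in KD cells, and -0.16 over the members and -0.01 over all genes in Control cells. The 2 lines share no arrays, but the counts do not show that the lines differ, since the difference between the lines in their change is the same quantity as the difference of the knockdown effects between days, which called 0 members. The comparisons with knockdown and with differentiation use the same arrays.

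The count in KD cells was 11 without KD_day7 replicate 1, where 5668 of all 18193 genes were called. With replicates 1 and 2 averaged, 6 members were called in KD cells and 2 in Control cells. Of all 18193 genes, 4098 were then called in KD cells and 1584 in Control cells. In each of these counts the share of members lay below that of all genes. The higher share of members given above thus did not hold under these settings. Called in both lines, and with the same sign, were 7 members: Ulk2, Atg2b, Zfyve1, Atg4c, Sqstm1, Bnip3 and Epg5. Of these, Bnip3 rose and the other 6 fell. How many of all genes were called in both lines was not counted, so the number of 7 shows no excess of the members. Among 26 alternative settings, the call in Control cells held in 15 for Atg2b and 17 for Epg5, and that of Atg4c in KD cells in 13. Bnip3 was called in all 26 in both lines.

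**Figure D4:**
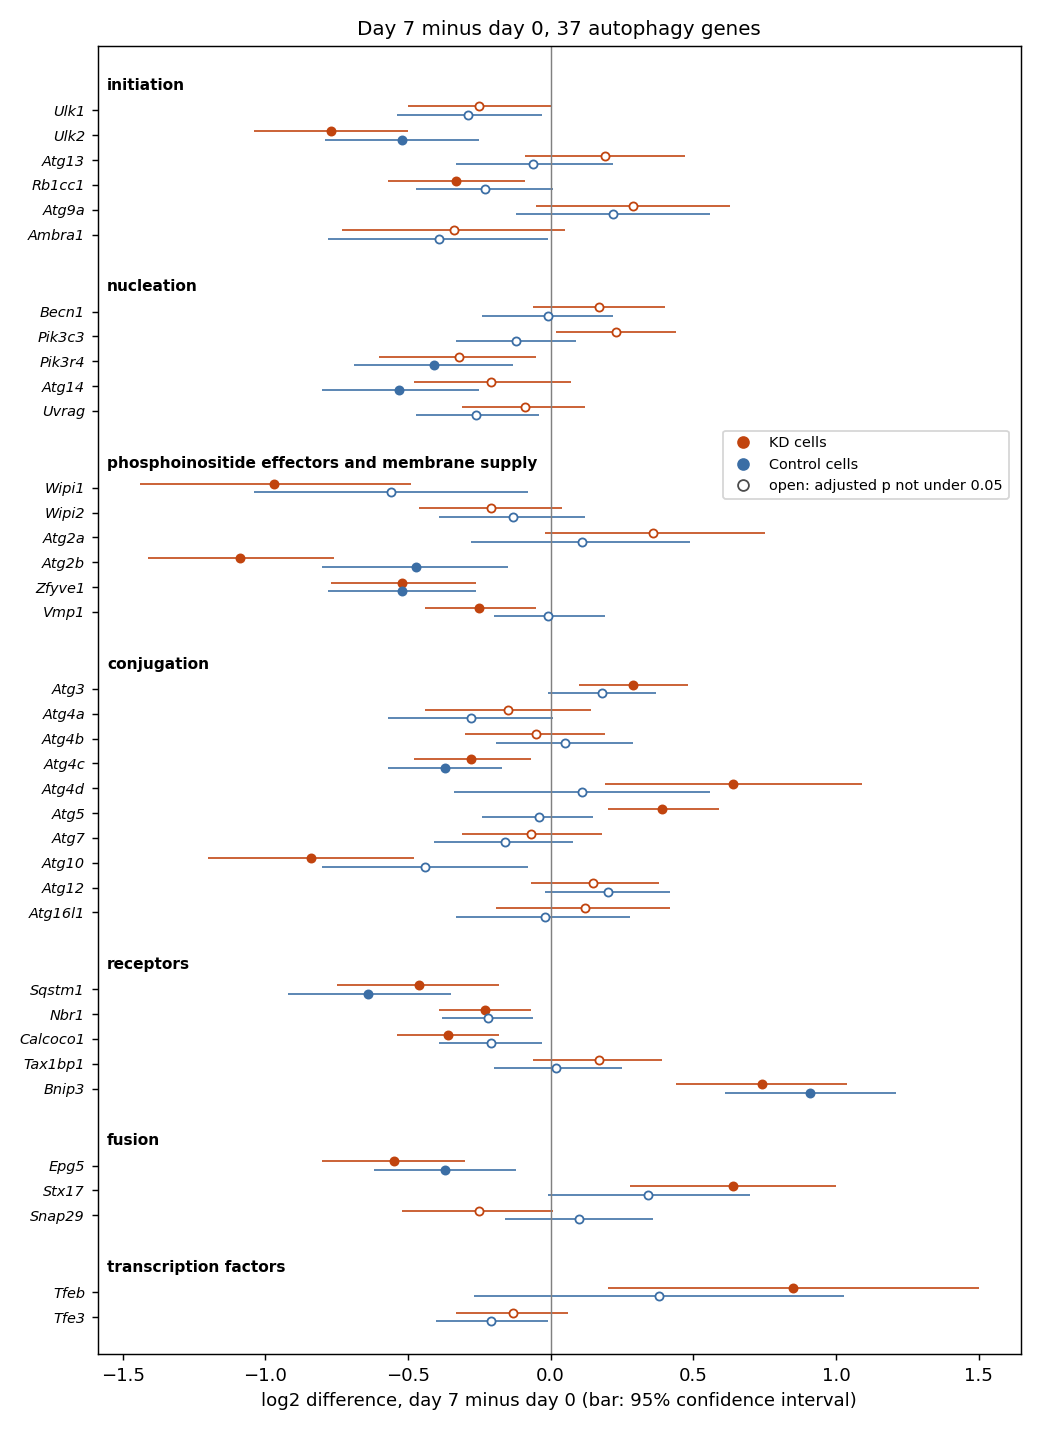
The log2 difference of day 7 minus day 0 (horizontal axis) is shown for 37 members, ordered by step, in KD cells (orange) and Control cells (blue), with 95% confidence intervals. Filled points mark the 18 members called in KD cells and the 9 called in Control cells; most of them lie left of 0, and Bnip3 lies right of 0 in both lines.

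Atg2b showed the largest change of any member in KD cells. It measured 7.40, 7.43, 7.84 and 7.35 at day 7, against 8.62, 8.42 and 8.73 at day 0, a log2 difference of -1.09 ± 0.15 (limma adjusted p = 0.000108), or 47% of the day 0 level. In Control cells it measured 8.21, 8.15, 8.29 and 7.92 at day 7, against 8.59, 8.38 and 8.88 at day 0, a difference of -0.47 ± 0.15 (0.0382). The days did not overlap in either line. The call in KD cells held in all 26 alternative settings, and that in Control cells in 15 of 26. The second Atg2b probe set again did not share the decrease (0.17 ± 0.14 in KD cells and 0.08 ± 0.14 in Control cells).

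Wipi1, a close relative of Wipi2 that also binds the phosphoinositide mark, measured 9.07, 9.07, 9.80 and 9.34 in KD cells at day 7, against 10.28, 10.51 and 10.07 at day 0. All day 7 arrays lay below all day 0 arrays. The difference was -0.97 ± 0.22 (limma adjusted p = 0.00361), and -0.83 with replicates 1 and 2 averaged (0.0627). In Control cells Wipi1 measured 9.35, 9.27, 10.16 and 9.73 at day 7, against 10.26, 10.14 and 10.16 at day 0. Replicate 3 of day 7 reached the day 0 range there, and the difference of -0.56 ± 0.22 did not pass (0.0876). Of its 6 probe sets, 5 had a negative change in KD cells, and 4 of those passed over all probe sets.

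Atg10 measured 8.27, 8.49, 8.90 and 8.80 in KD cells at day 7, against 9.68, 9.36 and 9.31 at day 0, without overlap (-0.84 ± 0.17, limma adjusted p = 0.00144). In Control cells it measured 9.21, 9.22, 9.41 and 9.34 at day 7, against 10.05, 9.52 and 9.63 at day 0, also without overlap, and the difference of -0.44 ± 0.17 did not pass (0.0796). The fall of Atg10 with differentiation therefore passed in KD cells alone, while the difference between the lines was -0.41 with a 95% confidence interval of -0.91 to 0.10.

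Tfeb encodes a transcription factor that drives lysosome and autophagy genes. It measured 6.30, 6.13, 5.03 and 6.27 in KD cells at day 7, against 5.05, 5.14 and 5.06 at day 0. Replicate 3 of day 7 lay below the day 0 arrays, and the other 3 lay about 1 log2 unit above them. The difference was 0.85 ± 0.30 (limma adjusted p = 0.0413). The call was lost without Control_day0 replicate 2 (0.85, adjusted p = 0.0518), without any 1 of the 3 KD_day0 arrays (0.83 to 0.88, 0.0835 to 0.101) and without KD_day7 replicate 1 (0.73, 0.109), 2 (0.78, 0.0953) or 4 (0.74, 0.101). In Control cells Tfeb measured 5.85, 5.75, 4.99 and 5.22 at day 7, against 5.30, 5.23 and 4.69 at day 0, with overlap (0.38 ± 0.30, 0.431). These levels are low on this scale, where changes of dim genes are understated.

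Bnip3, which encodes a receptor that marks mitochondria for autophagy, was the 1 member that rose in both lines. It measured 12.67, 12.67, 12.82 and 12.68 in KD cells at day 7, against 11.95, 11.92 and 12.03 at day 0 (0.74 ± 0.14, limma adjusted p = 0.000979). In Control cells it measured 13.16, 13.07, 13.20 and 12.51 at day 7, against 12.14, 12.03 and 12.06 at day 0 (0.91 ± 0.14, 0.00053), or 1.88-fold. Day 7 lay above day 0 in every array of both lines, and Control replicate 4 was the lowest at day 7.

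Sqstm1, the gene of the cargo receptor p62, fell in both lines. It measured 11.15, 11.13, 11.39 and 11.34 in KD cells at day 7, against 11.69, 11.74 and 11.74 at day 0 (-0.46 ± 0.13, limma adjusted p = 0.0136). In Control cells it lay between 10.96 and 11.51 at day 7, against 11.69, 11.97 and 11.75 at day 0 (-0.64 ± 0.13, 0.00383). The days did not overlap, and a second Sqstm1 probe set fell by 1.32 on the log2 scale in KD cells and by 1.47 in Control cells.

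Zfyve1 encodes DFCP1, a marker of the membrane site where autophagosomes form. It measured 7.79, 7.82, 8.10 and 8.19 in KD cells at day 7, against 8.44, 8.60 and 8.45 at day 0 (-0.52 ± 0.12, limma adjusted p = 0.00383). In Control cells it measured 8.27, 8.24, 8.14 and 8.13 at day 7, against 8.92, 8.55 and 8.68 at day 0 (-0.52 ± 0.12, 0.00681). The 2 lines gave the same estimate, with a 95% confidence interval of -0.36 to 0.37 for their difference.

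Atg14 measured 7.20, 7.31, 7.15 and 7.43 in KD cells at day 7, against 7.49, 7.56 and 7.39 at day 0, with overlap (-0.21 ± 0.13, limma adjusted p = 0.242). In Control cells it measured 6.84, 6.80, 7.33 and 7.18 at day 7, against 7.62, 7.57 and 7.51 at day 0 (-0.53 ± 0.13, 0.00913). The days did not overlap there, and replicates 1 and 2 of day 7 lay lowest. With replicates 1 and 2 averaged the difference in Control cells was -0.44 (0.14). The difference between the lines was 0.32, with a 95% confidence interval of -0.07 to 0.71.

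**Figure D5:**
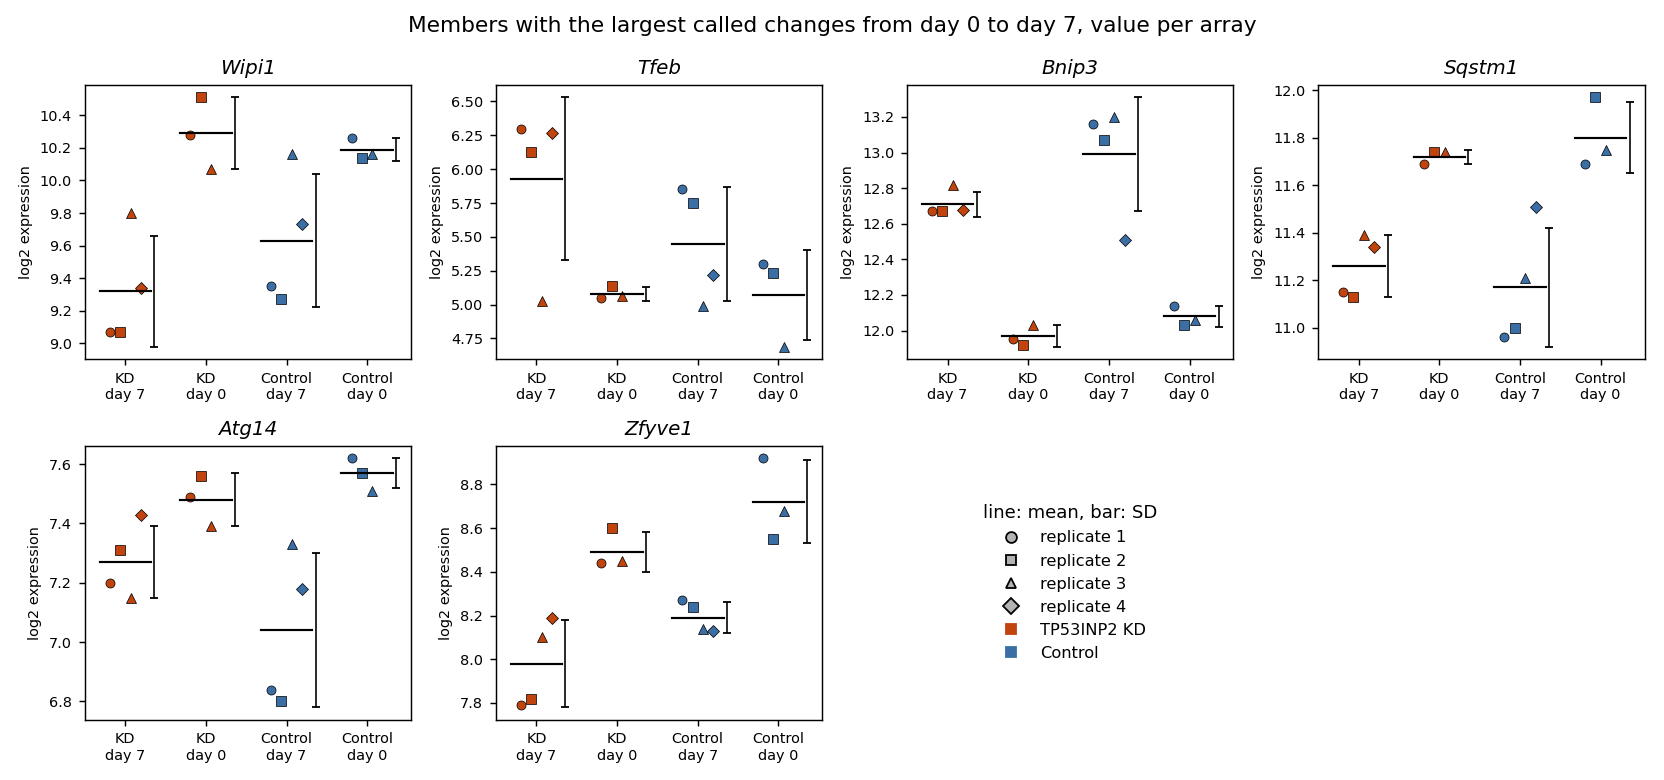
The log2 expression (vertical axis, not starting at 0) of 6 members with large changes during differentiation is shown for every array, day 7 left of day 0 in KD and in Control cells, with the group mean as a line and the SD as a bar. Bnip3 is higher and Sqstm1 and Zfyve1 are lower at day 7 in every array of both lines, whereas Tfeb of KD replicate 3 stays at 5.03.

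By step, the falling genes in KD cells held 2 of 6 initiation genes, the kinase gene Ulk2 (-0.77 ± 0.13) and Rb1cc1 (-0.33 ± 0.11), and 4 of 6 phosphoinositide effectors and membrane suppliers. Besides Atg2b, Wipi1 and Zfyve1 these were joined by Vmp1, a membrane protein of the endoplasmic reticulum (-0.25 ± 0.09). Of 5 nucleation genes 0 passed in KD cells, while Atg14 and Pik3r4, the regulatory subunit VPS15 (-0.41 ± 0.13), fell in Control cells. The conjugation genes split in KD cells. Atg3, the E2-like enzyme for ATG8 proteins (0.29 ± 0.09), Atg5 (0.39 ± 0.09) and Atg4d (0.64 ± 0.21) rose, whereas Atg10 and Atg4c (-0.28 ± 0.09) fell. Of 5 receptors, Sqstm1, Nbr1 (-0.23 ± 0.07) and Calcoco1 (-0.36 ± 0.08) fell and Bnip3 rose. In the fusion group Stx17, the autophagosomal SNARE (0.64 ± 0.16), rose, and the tether gene Epg5 (-0.55 ± 0.12) fell. Another Stx17 probe set, with a mean of 7.51, changed by -0.20 in KD cells (adjusted p = 0.267 over all probe sets). A second Nbr1 probe set changed by 0.06 ± 0.15 in KD cells and did not share that decrease. Among 26 alternative settings, the call in KD cells held in 9 for Vmp1, 13 for Atg4c, 15 for Nbr1 and 16 for Rb1cc1. It held in 18 each for Atg3 and Atg4d, in 24 or 25 for Atg5, Calcoco1 and Stx17, and in all 26 for Ulk2 and Epg5.

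The members whose brightest probe set was not called in any comparison were spread over the steps (the replicate block aside). Those of initiation, Atg13, Atg9a and Ambra1, changed in KD cells by 0.19, 0.29 and -0.34 from day 0 to day 7. Becn1 and Pik3c3 changed by 0.17 and 0.23. Atg4a, Atg7, Atg12 and Atg16l1 lay between -0.15 and 0.15, and Tax1bp1 and Tfe3 at 0.17 and -0.13. Ulk1 (-0.25), Atg2a (0.36) and Snap29 (-0.25) did not pass with differentiation either. For 3 of these members another probe set passed over all probe sets. The second Atg7 probe set, almost as bright as the first (means of 8.96 and 9.08), fell by 0.52 on the log2 scale in KD cells (limma adjusted p = 0.00102) and by 0.61 in Control cells (0.000858), and a dimmer one with a mean of 5.63 fell by 0.28 in KD cells (0.0464). The second Snap29 probe set rose by 0.79 ± 0.21 in KD cells (0.0113), and a dim Ambra1 probe set with a mean of 3.93 fell by 0.76 there (0.0157).

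Promoter sequences of the members were read because several members moved together during differentiation and Tfeb was among them. TFEB is known to bind the letters CACGTG within a longer element called CLEAR, and thyroid hormone receptors, for which TP53INP2 is a known coactivator, bind repeats of the letters AGGTCA. The 250 bases before each annotated gene start were searched on both strands; CACGTG reads the same on both. RefSeq (GRCm38.p6) gave 41 promoters for 31 of the 37 members. CACGTG was found in 4 of these promoters (9.76%), those of Atg3, Atg5, Atg7 and Bnip3, against 6.02% of all 32851 promoters. AGGTCA was found in 6 promoters (14.6%), those of Ulk2, Pik3r4, Vmp1, Atg4a, Nbr1 and Tax1bp1, against 14% of all promoters, a share near the background. Of the 6 members that rose in KD cells, 3 held CACGTG (Atg3, Atg5 and Bnip3). Of the 12 that fell there, 10 had an annotated promoter, and 0 of these held it. Over all genes with an annotated promoter, 6.86% held it, and the share among all rising or falling genes was not counted. In Control cells Atg3 (0.18) and Atg5 (-0.04) did not pass with differentiation, and Bnip3 was the 1 member that rose. Atg7 held CACGTG too and was not called, although its second probe set fell in KD cells (-0.52). Among 26 alternative settings, the rise in KD cells held in 18 for Atg3, 24 for Atg5, 26 for Bnip3 and 16 for Tfeb. The promoter counts are small and describe letters in a window, not binding. Which factor reads the letters was not tested. The stretches around CACGTG, in capitals with up to 20 bases on either side, are shown 5′ to 3′ on the strand of the gene.
Atg3 (chr16:45158715-45158760, plus strand, the first of 2 matches in its window): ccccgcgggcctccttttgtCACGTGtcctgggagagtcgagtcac
Atg5 (chr10:44268305-44268338, plus strand, cut at the gene start): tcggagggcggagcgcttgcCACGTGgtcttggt
Atg7 (chr6:114670944-114670989, plus strand): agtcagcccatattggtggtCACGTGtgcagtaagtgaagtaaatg
Bnip3 (chr7:138909589-138909634, minus strand): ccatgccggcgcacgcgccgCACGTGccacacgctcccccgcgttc
The letters begin 94 bases before the start of Atg3, 14 before that of Atg5, 132 before that of Atg7 and 108 before that of Bnip3.

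Genes around the members were counted from 5 further lists. With knockdown at day 7, 1 gene passed in each of 4 lists, all lower. Of all genes 3.57% were lower in this comparison, and 1 of 18 or 1 of 19 is near that share. Map1lc3b, which encodes the ATG8-family protein LC3B, measured 11.59, 11.42, 11.98 and 11.71 in KD cells, against 12.13, 12.09, 12.17 and 12.15 in Control cells, without overlap (-0.46 ± 0.10, limma adjusted p = 0.0208). It was 1 of 6 genes of the ATG8 family and Trp53inp1. Wdr45b, a relative of the WIPI genes (-0.31 ± 0.07, 0.0271), was 1 of 19 other autophagy genes measured. Vps41, a subunit of the tethering complex HOPS (-0.33 ± 0.09, 0.0396), was 1 of 11 tethering and fusion partners, and Foxo3, a transcription factor known to act on autophagy genes (-0.41 ± 0.11, 0.0426), 1 of 18 upstream kinase regulators and related factors. Of 13 lysosome genes 0 passed at day 7 (median -0.11), and at day 0 and in the difference between days 0 genes of the 5 lists were called.

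From day 0 to day 7 the lysosome genes fell, 13 of 13 in KD cells (median -0.57) and 12 of 13 in Control cells (median -0.41). Of all genes, 16.8% fell and 19% rose in KD cells, and 12.8% fell and 10.1% rose in Control cells. The ATG8 family list had 4 of 6 genes falling in KD cells and 4 of 6 in Control cells. Of the tethering and fusion partners 6 of 11 fell in KD cells and 5 of 11 in Control cells, and 0 rose in either. The other autophagy genes were mixed, with 5 rising and 6 falling in KD cells and 2 rising and 7 falling in Control cells. The upstream regulators were mixed too, with 3 rising and 5 falling in KD cells and 2 rising and 4 falling in Control cells.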

How the data were processed

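The deposited table gives log2 expression for 45101 probe sets on 14 arrays. The submitters' processing notes name RMA, which corrects background, equalises the distributions of arrays and combines the probes of a set, and affy, with versions not given in the sources used here. Base 2 follows from the values, which run between 1.13 and 14.37. Changes of dim genes are compressed by RMA, and precision is limited by how many arrays there are.

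Symbols came from the platform annotation, and all 37 members matched RefSeq (GRCm38.p6). Group means were fitted to all arrays together in limma 3.58.1 (R 4.3.3, 12.6 degrees of freedom after moderation). Every adjusted p is from limma with Benjamini-Hochberg adjustment over 18193 genes (over 45037 probe sets where stated). The code was tested on simulated data. The members and lists were chosen with earlier results of these data known. Full values are given for members called with knockdown, for Wipi2 and Atg2b, and for the 4 largest called changes in each line with differentiation. The replicate numbers pair samples within a day. Over the genes brighter than the median gene, deviations of same-numbered KD and Control arrays correlated at 0.55, 0.63, 0.76 and 0.20 at day 7. At day 0 these correlations were 0.30, 0.27 and 0.33. Some differently numbered arrays of day 7 correlated as much or more, KD 1 with Control 2 at 0.68 and KD 4 with Control 1 and 2 at 0.25 and 0.26, so the numbers of replicates 1, 2 and 4 are less sharply paired than that of replicate 3. Alternatives covered the replicate block, averaged replicates, probe set choice, dim genes, scaling, samples in the fit, moderation, RNA quality and single arrays left out. The beta-actin covariate, the subsets of day 7 arrays and the test of every probe set were chosen after seeing the data.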

Additional observations from a re-analysis of the deposited data

Results flagged for a closer look

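In the day 7 groups, 1 array stood apart from the other 3 in 6 of the 74 group and member pairs checked. Chance gives such a gap in about 1 in 20. In 5 of the 6 the array was KD replicate 3. Its Atg2b level was 7.84, against 7.35 to 7.43 in the other KD arrays, and its Bnip3 level was 12.82, against 12.67 to 12.68. It lay low in Atg4d (6.13, against 6.81 to 6.94), Atg16l1 (7.30, against 7.77 to 7.84) and Tfeb (5.03, against 6.13 to 6.30). The sixth was Atg7 in Control replicate 3, at 8.54 against at least 8.97 in the other Control arrays. The second Wipi2 probe set differed between days in its knockdown difference, by 1.11 ± 0.19 (limma adjusted p = 0.0487 over all probe sets): every KD array lay above every Control array at day 7 and the groups overlapped at day 0.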

How the results depend on the processing

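The number of members called at day 7 (5) moved with most choices: 9 with the replicate block, 8 with the dimmest 40% of genes left out, 11 with the beta-actin covariate, 3 with the most variable probe set (largest interquartile range) or the mean over probe sets, and 0 with replicates 1 and 2 averaged, with only the groups of the comparison in the fit, or with day 7 cut to replicates 3 and 4. It was 1 to 10 with single arrays left out. At day 0 the count (1) was 0 with replicates 1 and 2 averaged, either other choice of probe set or arrays shifted to 1 median, 2 with day 7 cut to replicates 1 and 2, and 0 to 2 with single arrays left out. The difference between days (0) was 1 when every probe set was tested, and 0 with every array left out in turn. With differentiation, the count in KD cells (18) was 6 with replicates 1 and 2 averaged, 11 with only its groups in the fit, 8 with day 7 cut to replicates 3 and 4, and 11 to 20 with single arrays left out. In Control cells (9) it was 2 with replicates averaged, 2 with day 7 cut to replicates 3 and 4, and 6 to 11 with single arrays left out. A block on the replicate number across days, where the pairing did not hold, gave 19 in KD and 12 in Control cells. The most variable probe set turned Wipi2 at day 0 to -0.15 (adjusted p = 0.687) and Nbr1 with differentiation in KD cells to 0.06 (0.834). The causes were not tested, except that fewer samples enter the fits that average or leave out arrays.

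Over all genes, the 1197 called at day 7 became 2680 with the replicate block, 64 with replicates averaged, 1831 without dim genes, 333 with only the groups of the comparison, 2804 with the covariate, 48 with replicates 3 and 4, and 369 to 2885 with single arrays left out. The 328 at day 0 became 844, 24, 498, 207, 590 and 134 under the same settings, 954 with day 7 cut to replicates 1 and 2, 101 to 631 with single arrays left out, and 517 with arrays shifted to 1 median, of which 76 were higher against 85 of 328. The 4 of the difference between days became 196 with the block, 0 with replicates averaged, 12 with the most variable probe set, 57 without dim genes, 8 with trended robust moderation, 185 with replicates 1 and 2 and 1 with replicates 3 and 4 or quantile normalization (1 of 1 higher, against 3 of 4), and 1 to 317 with single arrays left out. With differentiation, 6506 in KD cells became 4098 with replicates averaged and 4208 with replicates 3 and 4, and 4162 in Control cells became 1584 and 1711.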
